A study of Mus musculus with 96 samples.

Results

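The liver sinusoid is lined by a specialised endothelium and wrapped by stellate cells, and 39 genes that mark these cell types were followed here through feeding of PB to mice. The set holds 24 endothelial genes, from Pecam1 to Wnt9b, and 15 stellate cell genes, from Lrat to Timp1. Its members come from a fixed list of names, which was drawn up with earlier results of these data known. All 39 were measured, among 18193 genes in all, and each gene is represented by its brightest probe set on average.

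Whole liver RNA of CD-1 mice, an outbred stock, was hybridised to 96 arrays, 4 for each combination of sex, day 2 or day 7, and dose. Females and males ate diets with PB at doses of 150, 75, 15, 1.5 or 0.15, and the groups at dose 0 are the controls. The titles attach ppm to these dose numbers and the design text attaches mg/kg-day; the text gives the numbers alone, and the axes of the plots carry the second unit. The labels do not expand PB, which commonly stands for phenobarbital, an activator of the nuclear receptor CAR in hepatocytes; they name no gene change, no age, and do not say whether each array is a separate mouse. The p-values therefore measure the spread between these arrays, which may be technical.

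Sinusoidal endothelial cells have open pores, lack a continuous basement membrane and clear macromolecules from blood through scavenger receptors. Those near the central vein send Wnt ligands and R-spondin 3 to neighbouring hepatocytes, which keep pericentral genes on. Stellate cells store vitamin A as retinyl esters and, after injury, can turn into fibroblasts that lay down collagen.

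Values are on the log2 scale, normalized between arrays by the authors, with array medians from 5.35 to 5.44. Differences were tested with limma, and a gene was called where the p adjusted over all 18193 genes (Benjamini-Hochberg) was under 0.05. "Rose" and "fell" are used only of called genes, and SE denotes the standard error of a difference in limma. Of 18 measured targets of CAR all 18 rose in the average of 150 against 0, where 8.27% of all genes did. These targets too were listed with earlier results of these data known. Within males on day 2, 2 arrays stood apart from their labels by such a target, Cyp2b10. The array labelled dose 15, replicate 1, read 13.66 against 11.07 to 11.29 in the others of its group, and the one labelled dose 75, replicate 1, read 10.98 against 13.19 to 13.36. The counts at 75 and 15, and the genes named there with a change, are therefore given with and without them; ranges over arrays include them. In the control arrays the hepatocyte markers averaged 13.56, the endothelial genes 8.17 and the stellate genes 8.67, all above the array medians; probe sets differ in brightness, so these levels are not set against each other. Bulk RNA cannot tell fewer cells of a type from less RNA per cell.

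Averaged over both sexes and both days, 15 of the 39 genes fell at 150 and 0 rose, where 9.42% of all genes fell and 8.27% rose. Of the endothelial genes 9 of 24 fell, led by Stab2, Wnt2 and Rspo3. Of the stellate genes 6 of 15 fell, led by Lrat, Ecm1 and Reln. The median log2 change was -0.13 over the endothelial genes and -0.18 over the stellate genes, against -0.01 over all genes. In the same comparison 8 of 17 hepatocyte marker genes fell, with a median of -0.09, and their mean level ran from 13.48 to 13.60 in controls and from 13.39 to 13.52 at 150. Of 27 cell division genes 25 rose in the average, as did 25 in each sex on day 2, against 1 in females and 0 in males on day 7 (2 and 5 at an unadjusted limma p under 0.05). Their mean level ran from 5.36 to 6.57 in controls of both days, from 6.83 to 8.72 at 150 on day 2 and from 5.80 to 6.35 at 150 on day 7. The part of either in the fall of the endothelial and stellate genes was not tested.

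**Figure D1:**
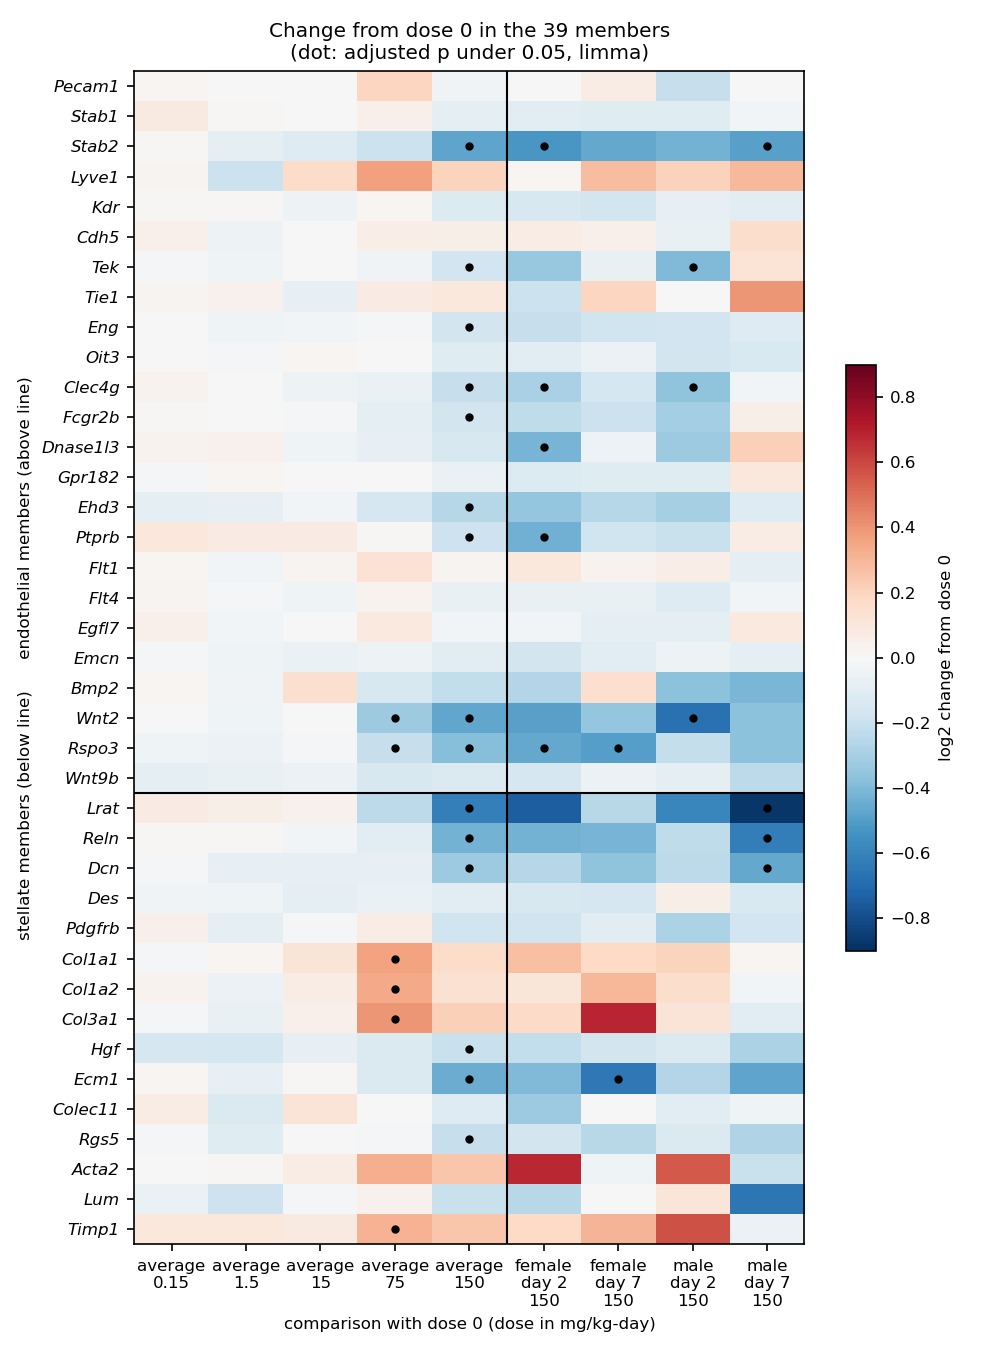
Log2 change from dose 0 (colour) of the 39 genes, endothelial above the line and stellate below, for the average over sexes and days at each dose and for 150 in each sex and day; a dot marks an adjusted p under 0.05. Across the 5 averages, each of Stab2, Wnt2, Rspo3, Lrat and Ecm1 has its lowest value at 150, at -0.47, -0.47, -0.39, -0.61 and -0.45, and each of Col1a1, Col1a2 and Col3a1 has its highest at 75.

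Of the 4 genes for Wnt, R-spondin and BMP ligands in the endothelial set, Wnt2 and Rspo3 fell, and Wnt9b and Bmp2 were not called. Wnt2 encodes a Wnt ligand made by sinusoidal and central vein endothelium. Over the 16 arrays at dose 0 its lowest, median and highest values were 6.88, 7.31 and 7.66, and at 150 they were 6.36, 6.81 and 7.16. The upper control arrays lay above every treated array, but the ranges overlapped. The average fell by 0.47 ± 0.08 (SE; limma, adjusted p = 1.08e-05). On the linear scale the level fell by 27.8%.

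Rspo3, which encodes R-spondin 3 and raises the response of hepatocytes to Wnt, ran from 6.57 (median 7.00) to 7.43 in the 16 control arrays and from 6.14 (median 6.56) to 6.94 at 150. Its average fell by 0.39 ± 0.07 (SE; adjusted p = 3.54e-06), and the linear level fell by 23.4%. Wnt9b, a further central vein ligand whose mean of 5.39 is close to the array medians, differed by -0.13 ± 0.06 (SE; adjusted p = 0.137), and its second probe set had the opposite sign. Bmp2, the endothelial ligand that drives hepcidin in hepatocytes, differed by -0.22 ± 0.08 (SE; adjusted p = 0.0527), just outside the threshold.

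Stab2 encodes stabilin-2, the main receptor of sinusoidal endothelium for hyaluronan, and had the lowest adjusted p among all 39. It ran from 9.25 (median 9.49) to 9.88 at dose 0 and from 8.68 (median 9.05) to 9.40 at 150. Its average fell by 0.47 ± 0.07 (SE; adjusted p = 1.72e-07), and the linear level fell by 28.0%. Within each sex and day, all 4 treated arrays lay below all 4 controls. Its relative Stab1, a scavenger receptor also made by macrophages, differed by -0.09 ± 0.05 (SE; adjusted p = 0.32).

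Of the lectins and receptors of the same surface, Clec4g and Fcgr2b fell. Clec4g, the lectin LSECtin, ran from 11.03 (median 11.23) to 11.50 in controls and from 10.69 (median 11.07) to 11.35 at 150, and fell by 0.21 ± 0.05 (SE; adjusted p = 0.000336). Fcgr2b, the receptor that takes up immune complexes, ran from 10.02 (median 10.57) to 10.91 and from 10.05 (median 10.47) to 10.88. It fell by 0.17 ± 0.06 (SE; adjusted p = 0.0401), a call lost without any 1 of 19 of the 32 arrays compared; over all 32 left out in turn the change lay between -0.20 and -0.15. Its probe set can bind near-identical transcripts, and the mean of all its probe sets was not called (-0.11, adjusted p = 0.0688). Lyve1, a hyaluronan receptor shared with lymphatic endothelium, differed by 0.20 ± 0.16 (SE; adjusted p = 0.449), and Oit3 by -0.11 ± 0.05 (SE; adjusted p = 0.118).

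Among receptors for growth factors, Eng and Tek fell and the others did not pass. Eng encodes endoglin, a co-receptor for BMP9, and ran from 8.92 (median 9.12) to 9.32 at dose 0 and from 8.81 (median 8.91) to 9.12 at 150. It fell by 0.17 ± 0.04 (SE; adjusted p = 0.00118). Tek encodes the angiopoietin receptor TIE2, and ran from 7.15 (median 7.45) to 7.65 and from 6.74 (median 7.30) to 7.63. It fell by 0.17 ± 0.06 (SE; adjusted p = 0.0228); the call was lost without replicate 1 at 150 of females on day 2, of males on day 2 or of males on day 7, and over all 32 arrays left out in turn the change lay between -0.20 and -0.15. For both genes the ranges overlapped.

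The VEGF receptors gave no call in the average. Kdr, the main VEGF receptor of endothelium, differed by -0.12 ± 0.05 (SE; adjusted p = 0.0856), Flt1 by 0.02 ± 0.06 and Flt4 by -0.07 ± 0.04. Tie1, the orphan partner of TIE2, differed by 0.10 ± 0.07 (SE; adjusted p = 0.364). Their 95% intervals ran from -0.22 to -0.02 for Kdr, from -0.09 to 0.14 for Flt1, from -0.16 to 0.02 for Flt4 and from -0.04 to 0.23 for Tie1.

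Among adhesion, junction and other endothelial genes, Ptprb and Ehd3 fell. Pecam1, an adhesion molecule of all endothelium, differed by -0.03 ± 0.08 (SE; 95% interval -0.19 to 0.13), and Cdh5, the cadherin of endothelial junctions, by 0.05 ± 0.06 (SE; -0.08 to 0.18); neither was called. The secreted factor Egfl7 differed by -0.02, the sialoglycoprotein gene Emcn by -0.10, the chemokine scavenger Gpr182 by -0.06 and the nuclease gene Dnase1l3 by -0.14 (adjusted p = 0.0832). The second probe set of Dnase1l3 differed by 0.02. The other probe sets of Egfl7 differed by -0.04, -0.05 and -0.14, the last with a limma p adjusted over probe sets of 0.02. The junction phosphatase Ptprb ran from 9.15 (median 9.92) to 10.27 in controls and from 9.26 (median 9.72) to 10.03 at 150, and fell by 0.19 ± 0.06 (SE; adjusted p = 0.0105). The mean of its probe sets was not called (-0.14, adjusted p = 0.0765). Ehd3, an endocytic trafficking gene, ran from 8.97 (median 9.18) to 9.51 and from 8.70 (median 8.95) to 9.26, and fell by 0.26 ± 0.06 (SE; adjusted p = 0.000898). Control and treated ranges overlapped for both Ptprb and Ehd3.

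The stellate gene with the largest fall was Lrat, which encodes the enzyme that esterifies retinol for storage. It ran from 7.49 (median 8.19) to 8.83 in the 16 control arrays and from 6.70 (median 7.53) to 8.70 at 150. The average fell by 0.61 ± 0.12 (SE; adjusted p = 9.42e-05), and the linear level fell by 34.7%. The treated arrays spread widely, and 1 female array on day 7 read 8.70, inside the upper controls.

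Ecm1, a secreted matrix protein, ran from 9.45 (median 10.02) to 10.63 and from 9.13 (median 9.57) to 10.00, and fell by 0.45 ± 0.08 (SE; adjusted p = 4.8e-06). Reln, which encodes the secreted protein reelin, ran from 9.64 (median 10.15) to 10.51 and from 9.21 (median 9.72) to 10.11, and fell by 0.42 ± 0.09 (SE; adjusted p = 0.000169). Dcn, the small proteoglycan decorin, ran from 11.68 (median 12.08) to 12.31 and from 11.37 (median 11.74) to 12.04, and fell by 0.33 ± 0.07 (SE; adjusted p = 7.19e-05). For each of these 3 genes the mean was lower at 150 in both sexes on both days.

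Rgs5, a regulator of G protein signalling found in pericytes, ran from 10.69 (median 10.92) to 11.18 and from 10.53 (median 10.68) to 10.98. It fell by 0.20 ± 0.06 (SE; adjusted p = 0.00973), and the mean of its probe sets was not called (-0.17, adjusted p = 0.383). Hgf, the hepatocyte growth factor, ran from 5.74 (median 5.93) to 6.39 and from 5.47 (median 5.75) to 6.03, and fell by 0.20 ± 0.05 (SE; adjusted p = 0.00358). Hgf differed from dose 0 by -0.13 at 75, -0.07 at 15, -0.16 at 1.5 and -0.15 at 0.15 (SE 0.05 each), none of them called, with unadjusted p of 0.00452 at 1.5 and 0.00614 at 0.15. All 5 doses share the same control arrays. Both genes had overlapping ranges and a lower mean at 150 in all 4 combinations of sex and day.

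The other 9 stellate genes were not called. Col1a1 differed by 0.17 ± 0.09 (SE; adjusted p = 0.228), Col1a2 by 0.14 ± 0.10 (SE; 0.403) and Col3a1 by 0.22 ± 0.12 (SE; 0.241). Acta2, the smooth muscle actin of activated stellate cells, differed by 0.25 ± 0.12 (SE; 0.171), and Timp1, an inhibitor of matrix proteases, by 0.25 ± 0.10 (SE; 0.0562). The response of Acta2 on day 7 minus that on day 2 was -0.73 ± 0.25 (SE; limma, adjusted p = 0.11), not called. Lum, the proteoglycan lumican, differed by -0.20, the PDGF receptor Pdgfrb by -0.18, the lectin Colec11 by -0.12 and the intermediate filament Des by -0.10, with adjusted p from 0.127 to 0.261. The probe sets for Acta2 and Colec11 can bind near-identical transcripts.

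**Figure D2:**
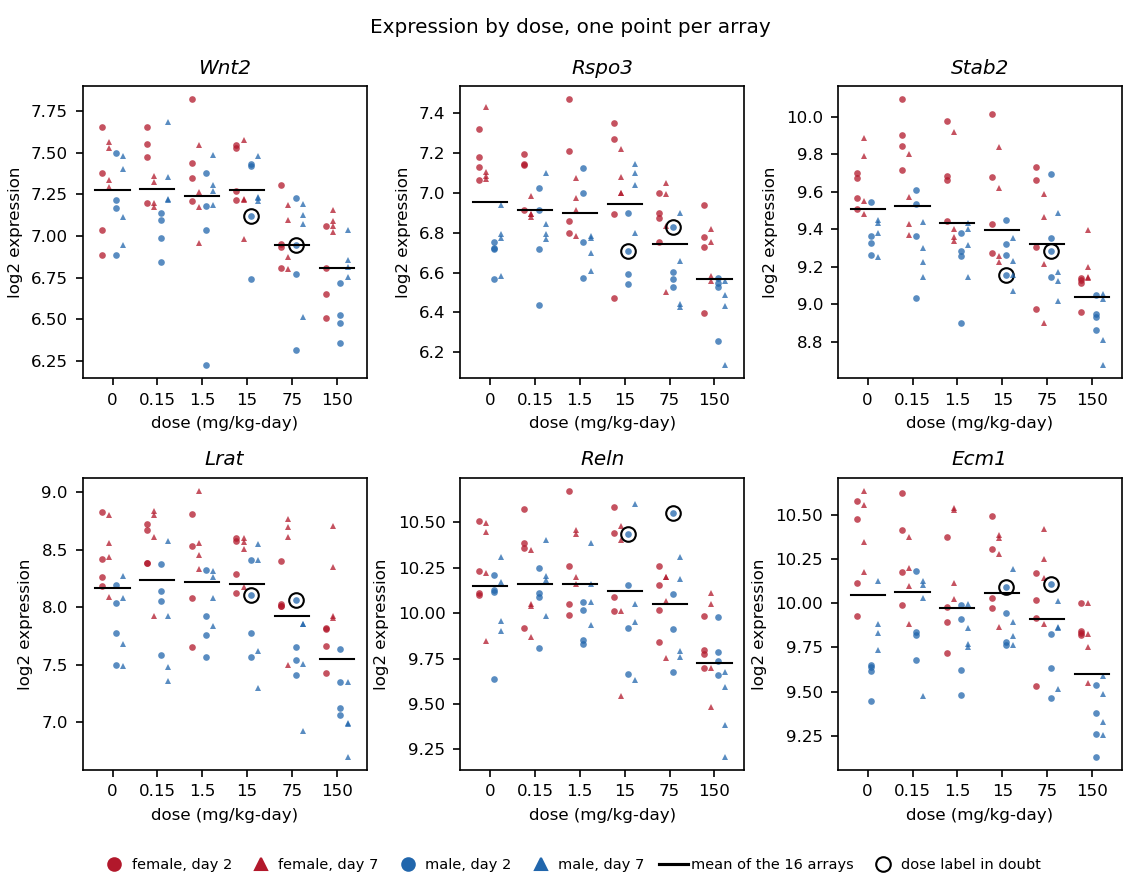
Log2 expression of Wnt2, Rspo3, Stab2, Lrat, Reln and Ecm1 by dose, 1 point per array with sex and day marked and the 2 arrays that stood apart from their labels ringed. The black line is the mean of the 16 arrays of a dose, lowest at 150 for all 6 genes; for Wnt2 the 16 arrays run from 6.36 to 7.16, against 6.88 to 7.66 at dose 0.

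The upstream sequences of 4 genes that fell together, and of Kdr, which was not called, are shown to set their start regions side by side. Each is the 250 bases before the start in RefSeq (GRCm38.p6, minus strand), printed 5′ to 3′, at chr3:82903975-82904224 for Lrat, chr3:95739570-95739819 for Ecm1, chr6:18030446-18030695 for Wnt2, chr10:87007943-87008192 for Stab2 and chr5:75978456-75978705 for Kdr. Capitals mark matches, on either strand, to 3 short motifs: the ETS core (AGGAAG or CGGAAG), the GATA core (AGATAA or TGATAA) and the TATA core (TATAA).
Lrat: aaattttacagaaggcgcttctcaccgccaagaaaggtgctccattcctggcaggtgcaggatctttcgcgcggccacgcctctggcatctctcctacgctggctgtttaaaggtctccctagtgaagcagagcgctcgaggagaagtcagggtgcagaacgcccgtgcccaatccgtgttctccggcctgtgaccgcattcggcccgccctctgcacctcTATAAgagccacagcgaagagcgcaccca
Ecm1: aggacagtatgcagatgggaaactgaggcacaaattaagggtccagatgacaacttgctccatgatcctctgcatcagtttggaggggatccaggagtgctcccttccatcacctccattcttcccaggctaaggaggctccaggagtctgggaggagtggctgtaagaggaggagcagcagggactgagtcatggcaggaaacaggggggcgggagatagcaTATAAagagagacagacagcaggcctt
Wnt2: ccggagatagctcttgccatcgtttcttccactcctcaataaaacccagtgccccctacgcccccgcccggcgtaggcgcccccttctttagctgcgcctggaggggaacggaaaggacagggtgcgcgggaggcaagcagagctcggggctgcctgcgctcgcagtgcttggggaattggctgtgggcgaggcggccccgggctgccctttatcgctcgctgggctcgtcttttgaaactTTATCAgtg
Stab2: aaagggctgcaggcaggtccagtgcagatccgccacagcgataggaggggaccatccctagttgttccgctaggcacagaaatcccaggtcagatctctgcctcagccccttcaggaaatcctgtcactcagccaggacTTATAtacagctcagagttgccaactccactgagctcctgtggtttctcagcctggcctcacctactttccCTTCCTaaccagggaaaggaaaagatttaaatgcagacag
Kdr: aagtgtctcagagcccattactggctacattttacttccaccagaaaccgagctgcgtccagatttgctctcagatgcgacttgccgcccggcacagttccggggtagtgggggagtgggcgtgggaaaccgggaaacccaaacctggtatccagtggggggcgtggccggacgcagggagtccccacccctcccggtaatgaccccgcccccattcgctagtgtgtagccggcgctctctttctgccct
A TATA core stood in the windows of Lrat, Ecm1 and Stab2, and in 22.8% of 32851 windows of all genes. The window of Wnt2 held 1 GATA core (16.6% of all windows), and that of Stab2 1 ETS core (39.2%). Of the 39 genes, 26 had a window, 29 windows in all; 14 of these held the ETS core, 4 the GATA core and 8 the TATA core. A match is a run of letters and no proof of a binding site, and the window of Kdr held none of the 3. The windows of Tek, Ehd3 and Fcgr2b, which fell, also held none. Those of Stab1, Tie1, Flt1 and Emcn, like Kdr not called in the average over sexes and days, each held 2 ETS cores. Other genes went the other way: Clec4g, Eng, Hgf, Reln and Rgs5 fell and held at least 1 core. Acta2, Des, Flt4 and Wnt9b were not called and held none. Whether the cores differ between fallen and other genes was not tested.

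By sex and day, calls were fewer, with 4 arrays against 4. The share of all genes whose 4 treated arrays lay apart from the 4 controls was not counted. Such gaps, here and above, therefore only describe the genes named. In females on day 2, 5 of 39 genes fell, all endothelial, where 2.14% of all genes fell; 0 rose, where 3.32% of all genes did. The remaining background shares were 0.923% fallen and 1.52% risen for females on day 7, 2.4% and 2.5% for males on day 2, and 0.835% and 2.2% for males on day 7. Of the 39 genes 2 fell in females on day 7, 3 in males on day 2 and 4 in males on day 7, and 0 rose in any of the 4. At an unadjusted limma p under 0.05, 15, 10, 12 and 12 genes passed in either direction. In females on day 2 these were 9 of 24 endothelial and 6 of 15 stellate genes, and the median log2 change was -0.18 in both sets.

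In females on day 2, Stab2 read 9.70, 9.51, 9.57 and 9.67 at dose 0 and 8.96, 9.12, 9.14 and 9.13 at 150, a fall by 0.53 ± 0.14 (SE; limma, adjusted p = 0.0115). Ptprb read 10.20, 10.12, 9.85 and 9.93 against 9.48, 9.53, 9.65 and 9.71, a fall by 0.43 ± 0.11 (SE; adjusted p = 0.00708). Rspo3 read 7.13, 7.07, 7.32 and 7.18 against 6.40, 6.73, 6.94 and 6.78, a fall by 0.46 ± 0.13 (SE; adjusted p = 0.0184). All treated arrays lay below all controls for these 3 genes. Clec4g read 11.30, 11.39, 11.03 and 11.39 against 10.84, 10.70, 11.06 and 11.34, and fell by 0.29 ± 0.09 (SE; adjusted p = 0.0388). Dnase1l3, a secreted nuclease, read 7.95, 8.27, 8.27 and 8.07 against 7.65, 7.40, 7.83 and 8.01, and fell by 0.42 ± 0.12 (SE; adjusted p = 0.0207). For Clec4g and Dnase1l3 the 2 groups overlapped. The second probe set of Dnase1l3 differed by 0.02 at 150 in the average over sexes and days. Its response to 150 on day 7 minus that on day 2 was -0.64, so the fall rests on 1 probe set. Averaged over the sexes, the second probe set was higher at 150 than at dose 0 on day 2. Stab2 lost its call without replicate 1 at 150 (-0.48), Ptprb without control replicate 1 (-0.37), and Rspo3 without control replicate 3 or replicate 1 at 150 (-0.54 to -0.36). Clec4g lost it without control replicate 1, 2 or 4, or replicate 1 or 2 at 150 (-0.41 to -0.20). Dnase1l3 lost it without control replicate 2 or 3, or replicate 1 or 2 at 150 (-0.51 to -0.31). Each range is over all 8 arrays left out in turn.

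In females on day 7, Rspo3 read 7.43, 7.07, 7.09 and 7.10 at dose 0 and 6.75, 6.82, 6.58 and 6.56 at 150, a fall by 0.50 ± 0.13 (SE; adjusted p = 0.0202). Ecm1 read 10.34, 10.63, 10.18 and 10.55 against 9.83, 10.00, 9.55 and 9.75, a fall by 0.64 ± 0.15 (SE; adjusted p = 0.00741). Neither gene's groups overlapped. Rspo3 lost its call without control replicate 1, or replicate 3 or 4 at 150 (-0.54 to -0.41), and Ecm1 without control replicate 2 (-0.73 to -0.57).

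In males on day 2, Wnt2 read 7.17, 6.88, 7.22 and 7.50 at dose 0 and 6.47, 6.36, 6.53 and 6.72 at 150, a fall by 0.67 ± 0.17 (SE; adjusted p = 0.00705). Clec4g read 11.07, 11.07, 11.25 and 11.22 against 10.84, 10.78, 10.69 and 10.86, a fall by 0.36 ± 0.09 (SE; adjusted p = 0.00796). The groups of both genes stood apart. Tek read 7.48, 7.15, 7.40 and 7.57 against 6.74, 6.82, 7.30 and 7.14, with overlap, and fell by 0.40 ± 0.11 (SE; adjusted p = 0.0205). Wnt2 lost its call without control replicate 4 (-0.77 to -0.57), and Tek without control replicate 1 or 4, or replicate 1 or 2 at 150 (-0.50 to -0.31).

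In males on day 7, Lrat read 7.68, 8.27, 8.08 and 7.49 at dose 0 and 6.98, 6.70, 7.35 and 6.99 at 150, a fall by 0.88 ± 0.25 (SE; adjusted p = 0.0294). Reln read 10.31, 10.17, 9.90 and 9.96 against 9.21, 9.38, 9.68 and 9.59, a fall by 0.62 ± 0.18 (SE; adjusted p = 0.0315). Dcn read 12.23, 12.12, 12.08 and 11.82 against 11.55, 11.63, 11.46 and 11.77, a fall by 0.46 ± 0.13 (SE; adjusted p = 0.0296). In all 3 the highest treated array lay below the lowest control. Stab2 read 9.25, 9.38, 9.44 and 9.45 against 8.68, 9.05, 9.03 and 8.81, also apart, and fell by 0.49 ± 0.14 (SE; adjusted p = 0.036). Each of these 4 calls could be lost by leaving out 1 array. Stab2 was lost without control replicate 2, 3 or 4, or replicate 1 or 4 at 150 (-0.54 to -0.41). Lrat was lost without control replicate 2 or 3, or replicate 1, 2 or 4 at 150 (-1.01 to -0.75), and Reln without replicate 1 or 2 of either dose (-0.69 to -0.53). Dcn was lost without control replicate 1, 2 or 3, or replicate 1, 2 or 3 at 150 (-0.54 to -0.40).

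With the mean of all probe sets, Clec4g, Dnase1l3 and Ptprb lost their calls in females on day 2, Rspo3 in females on day 7, Clec4g in males on day 2 and Lrat in males on day 7. Fits to the 24 arrays of 1 sex and day ended the calls of Stab2, Clec4g and Rspo3 in females on day 2, Tek and Wnt2 in males on day 2, and Lrat and Dcn in males on day 7. The signs stayed negative in all of these.

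Differences between the sexes or days in these responses were tested in the same fit. Between females and males, 0 of the 39 responses at 150 differed (1 at an unadjusted limma p under 0.05), where 0.0715% of all genes did. Between days 2 of 39 differed, Tek and Dnase1l3 (6 at an unadjusted limma p under 0.05), where 2.08% of all genes did. The response of Tek was 0.39 ± 0.11 (SE; adjusted p = 0.0387) higher on day 7 than on day 2. From dose 0 to 150 its group means went from 7.53 to 7.20 in females and from 7.40 to 7.00 in males on day 2, and from 7.51 to 7.44 and from 7.32 to 7.45 on day 7. Leaving out any 1 of 19 of 32 arrays ended this call, with differences between 0.35 and 0.45. Dnase1l3 differed by 0.45 ± 0.12 (SE; adjusted p = 0.0219) between the days. Its second probe set differed by -0.64, and the mean of both by -0.09, so the direction for this gene turns with the probe set. Its call was also lost without replicate 2 at 150 of females on day 2 or control replicate 3 of males on day 2 (0.40 to 0.50). The mean level of the cell division genes at 150 also differed between the days, 7.86 and 5.94 in females and 7.41 and 5.99 in males, and its part in these differences was not tested.

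**Figure D3:**
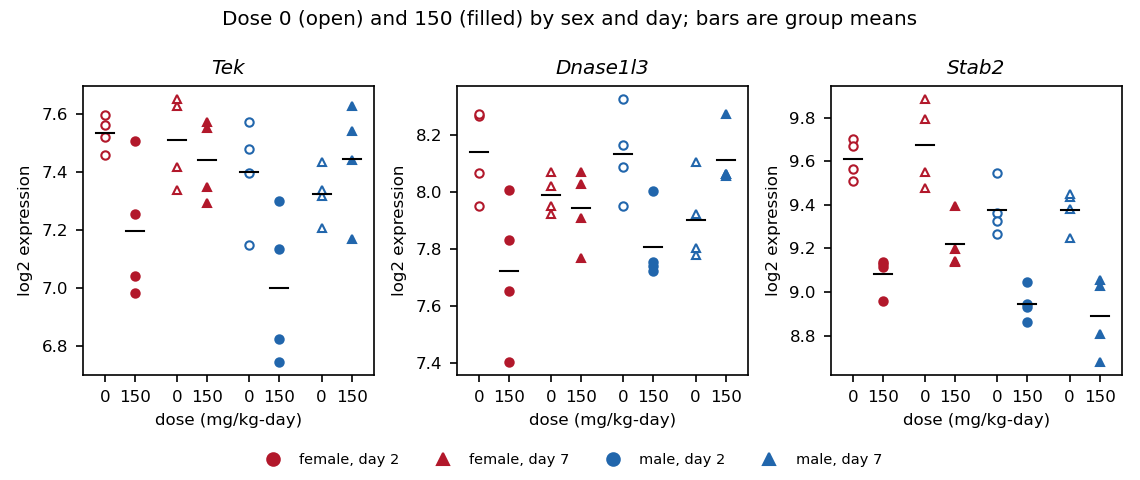
Log2 expression of Tek, Dnase1l3 and, for comparison, Stab2 at dose 0 (open) and 150 (filled), by sex and day, 1 point per array with the group mean as a line. The treated arrays of Tek have means of 7.20 against 7.53 in females and 7.00 against 7.40 in males on day 2, and of 7.44 against 7.51 and 7.45 against 7.32 on day 7, with overlap between the doses in all 4 pairs.

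At 75 the picture differed between genes. All dose comparisons share the dose 0 arrays, so values at 75 and 150 are set side by side and not counted as separate evidence. In the average at 75, 2 of 39 genes fell, where 3.56% of all genes fell, and 4 rose, where 5.36% did. These counts were not far from the shares of all genes, so the genes below are described singly and not as a response of the set. The 2 that fell were Wnt2, by 0.33 ± 0.08 (SE; adjusted p = 0.00573), and Rspo3, by 0.21 ± 0.07 (SE; adjusted p = 0.0281). Wnt2 ran from 6.32 (median 6.95) to 7.31 at 75, and Rspo3 from 6.42 (median 6.79) to 7.05. Without the 2 arrays that stood apart from their labels, both remained called (-0.34, adjusted p = 0.00578, and -0.23, adjusted p = 0.0202). Rspo3 lost its call without replicate 1 at dose 0 or replicate 3 at 75 of females on day 7, or replicate 1 or 2 at 75 of males on day 7 (-0.24 to -0.18). Stab2 differed by -0.19 ± 0.07 (SE; adjusted p = 0.0781), Lrat by -0.24 (0.245), Ecm1 by -0.13 (0.298), Reln by -0.10 (0.534) and Dcn by -0.07 (0.536). Without the 2 arrays these 5 differed by -0.18 (0.104), -0.27 (0.187), -0.16 (0.192), -0.14 (0.342) and -0.10 (0.365), still not called, and 2 of 39 genes fell and 3 rose, against 3.45% and 5.23% of all genes.

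The 4 genes that rose at 75 were matrix genes of the stellate set, and none of the 4 was called at 150. Col1a1, a chain of type I collagen, ran from 5.68 (median 5.98) to 6.41 at dose 0, from 5.76 (median 6.28) to 7.15 at 75 and from 5.66 (median 6.11) to 6.55 at 150. Col1a2, the other chain, ran from 8.87 (median 9.20) to 9.56, from 8.97 (median 9.59) to 10.22 and from 8.76 (median 9.40) to 9.71. Col3a1, of type III collagen, ran from 9.89 (median 10.58) to 11.10, from 10.49 (median 10.99) to 11.62 and from 10.25 (median 10.79) to 11.41. The arrays at 75 spread more widely than the controls for Col1a1 and Col1a2, and the lower ones lay among the controls for all 3. At 75 Col1a1 rose by 0.36 ± 0.09 (SE; adjusted p = 0.00605), Col1a2 by 0.34 ± 0.10 (SE; 0.019) and Col3a1 by 0.40 ± 0.12 (SE; 0.0284).

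Timp1 ran from 4.23 (median 4.63) to 4.93 at dose 0 and from 4.51 (median 4.84) to 5.93 at 75, mostly below the array medians, and rose by 0.31 ± 0.10 (SE; 0.0243). Without the 2 doubted arrays Col3a1 was no longer called (0.36, adjusted p = 0.055), while Col1a1 (0.31, 0.015), Col1a2 (0.29, 0.048) and Timp1 (0.29, 0.0431) still were. Col1a2 lost its call without replicate 3 at 75 of females on day 2 (0.29), and Timp1 without replicate 4 at 75 of females on day 2 or replicate 3 at 75 of females on day 7 (0.25 to 0.35). Col3a1 lost it without any 1 of 5 arrays (0.35 to 0.43): replicate 3 at 75 of females on day 2, control replicate 3 of females on day 7, replicate 1 at 75 of males on day 2, and control replicate 4 or replicate 2 at 75 of males on day 7. The second probe sets of Col1a1, Col1a2 and Col3a1 had the same sign at 75, at 0.14, 0.50 and 0.45. Across the 96 arrays, after subtracting group means, Col1a2 and Col3a1 moved together with r = 0.93, and Col1a1 with Col1a2 with r = 0.68, as a description of arrays that share each library.

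Markers of macrophages were counted at the same doses. Of 19 Kupffer and macrophage genes 12 rose at 75, where 5.36% of all genes rose, and 4 rose at 150, where 8.27% did. Without the 2 doubted arrays 11 rose at 75, where 5.23% of all genes did. Their mean level ran from 8.40 to 9.91 at dose 0, from 8.87 to 10.72 at 75 and from 8.66 to 9.76 at 150. Of 17 smooth muscle and mesothelial genes 0 were called at 75 or 150 (1 and 2 at an unadjusted limma p under 0.05), with means from 5.43 to 5.86 at dose 0, 5.51 to 5.95 at 75 and 5.30 to 5.91 at 150. The smooth muscle and mesothelial count at 75 includes the 2 doubted arrays. The part of either list in the collagen result was not tested.

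**Figure D4:**
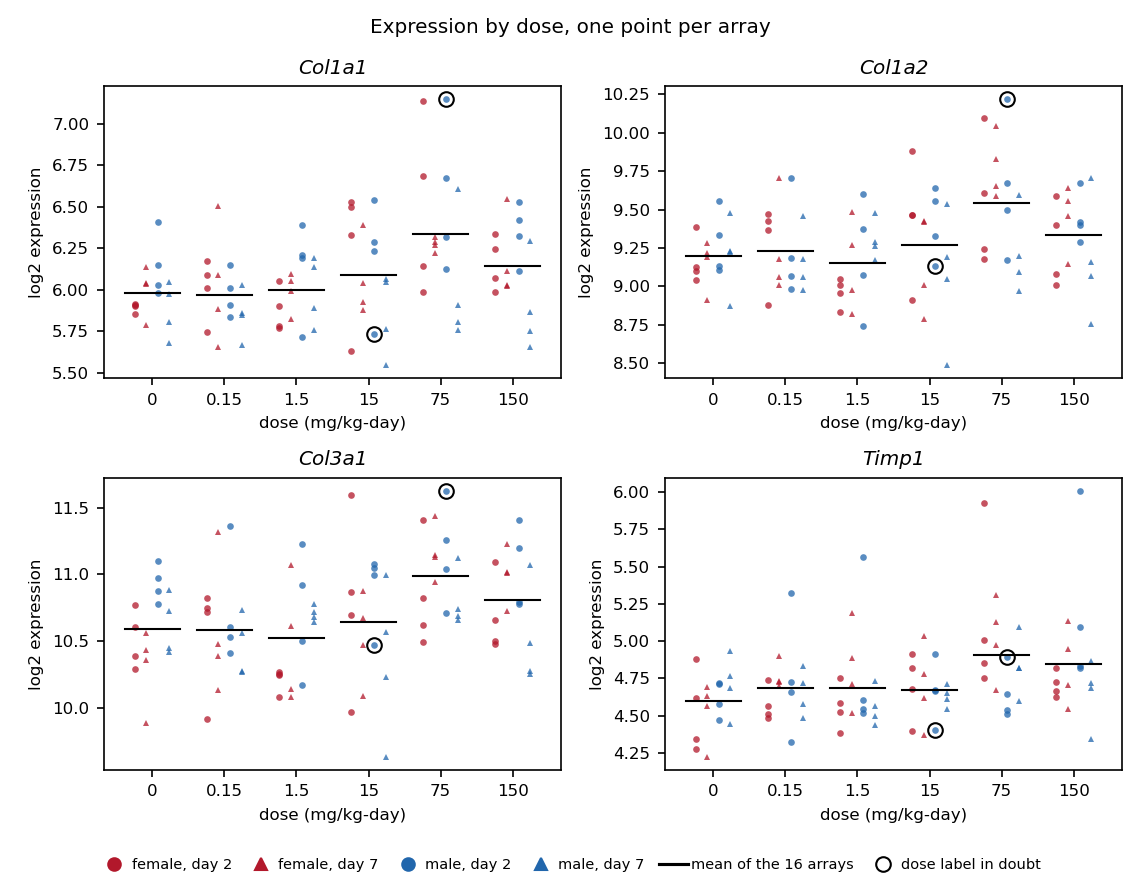
Log2 expression of Col1a1, Col1a2, Col3a1 and Timp1 by dose, 1 point per array with the mean of the 16 arrays of a dose as a line and the 2 arrays that stood apart from their labels ringed. The means at 75 are the highest of the 6 doses; Col3a1 runs from 10.49 to 11.62 there, against 9.89 to 11.10 at dose 0.

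Below 75 none of the 39 genes was called in the averages at 15, 1.5 or 0.15 with limma, where 0.11%, 0% and 0% of all genes were. At an unadjusted p under 0.05, 1 gene passed in each of the 3, Des at 15 (-0.09) and Hgf at 1.5 and 0.15. Without the 2 doubted arrays, 0 of the 39 were called at 15 (0 at an unadjusted limma p under 0.05), and Wnt2, Rspo3, Lrat and Stab2 differed by 0.01, -0.01, 0.02 and -0.10. At 15, Wnt2 differed by 0.00 ± 0.08, Rspo3 by -0.01 ± 0.07, Lrat by 0.04 ± 0.12 and Stab2 by -0.11 ± 0.07 (SE), with 95% intervals of -0.17 to 0.17, -0.14 to 0.12, -0.21 to 0.28 and -0.26 to 0.03. None of the 16 comparisons of a lower dose, 75 included, with dose 0 by sex and day called any of the 39; 1.41% of all genes were called in at least 1 of them. At an unadjusted limma p under 0.05, between 0 and 6 of the 39 passed in each. The 2 doubted arrays were kept in these 16 comparisons.

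The sexes differed in the controls. At dose 0, 6 of 39 genes were higher in females and 0 lower, where 6.52% of all genes were higher and 3.72% lower. Ecm1 ran from 9.93 to 10.63 over the 8 female arrays and from 9.45 to 10.12 over the 8 male arrays, a difference of 0.61 ± 0.11 (SE; limma, adjusted p = 2.31e-05). Rspo3 ran from 7.07 to 7.43 in females and from 6.57 to 6.94 in males, a difference of 0.44 ± 0.09 (SE; adjusted p = 0.000362). The sexes did not overlap for Rspo3 and overlapped for Ecm1.

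Lrat ran from 8.09 to 8.83 in females and from 7.49 to 8.27 in males, a difference of 0.57 ± 0.18 (SE; adjusted p = 0.0227). Ptprb was 0.39 ± 0.08 (SE; adjusted p = 0.000224) higher in females, Fcgr2b 0.27 ± 0.09 (SE; 0.0263) and Clec4g 0.21 ± 0.06 (SE; 0.0225). Of these, Clec4g lost its call without any 1 of 6 of the 16 arrays (0.19 to 0.25), Fcgr2b without any 1 of 7 (0.21 to 0.32) and Lrat without any 1 of 4 (0.50 to 0.64). With the mean of all probe sets of a gene, Clec4g (0.04), Rspo3 (0.14) and Lrat (0.49) were not called.

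Over all doses together, treated arrays included, 24 of 39 genes were higher in females and 1, Tie1, was lower, where 22.1% of all genes were higher and 19.3% lower. With the mean of all probe sets of a gene, 18 of the 39 were called. Clec4g, Ehd3, Flt4, Egfl7, Reln, Des and Rgs5 were then not called, and Flt1 turned to -0.0308 (adjusted p = 0.16). The 6 with the smallest adjusted p were Ecm1 (0.38 ± 0.04), Lrat (0.59 ± 0.07), Rspo3 (0.25 ± 0.04), Clec4g (0.18 ± 0.03), Stab2 (0.26 ± 0.04) and Ptprb (0.20 ± 0.03), with SE beside each difference and adjusted p from 1.72e-11 to 2.16e-07. Tie1 was 0.18 ± 0.04 (SE; adjusted p = 9.87e-05) lower in females. Quantile normalization lowered the number called from 25 to 20, ending the calls of Stab1, Flt1, Wnt2, Des and Rgs5. Between day 7 and day 2 at dose 0, 0 of 39 genes were called (4 at an unadjusted limma p under 0.05), where 0.033% of all genes were.

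**Figure D5:**
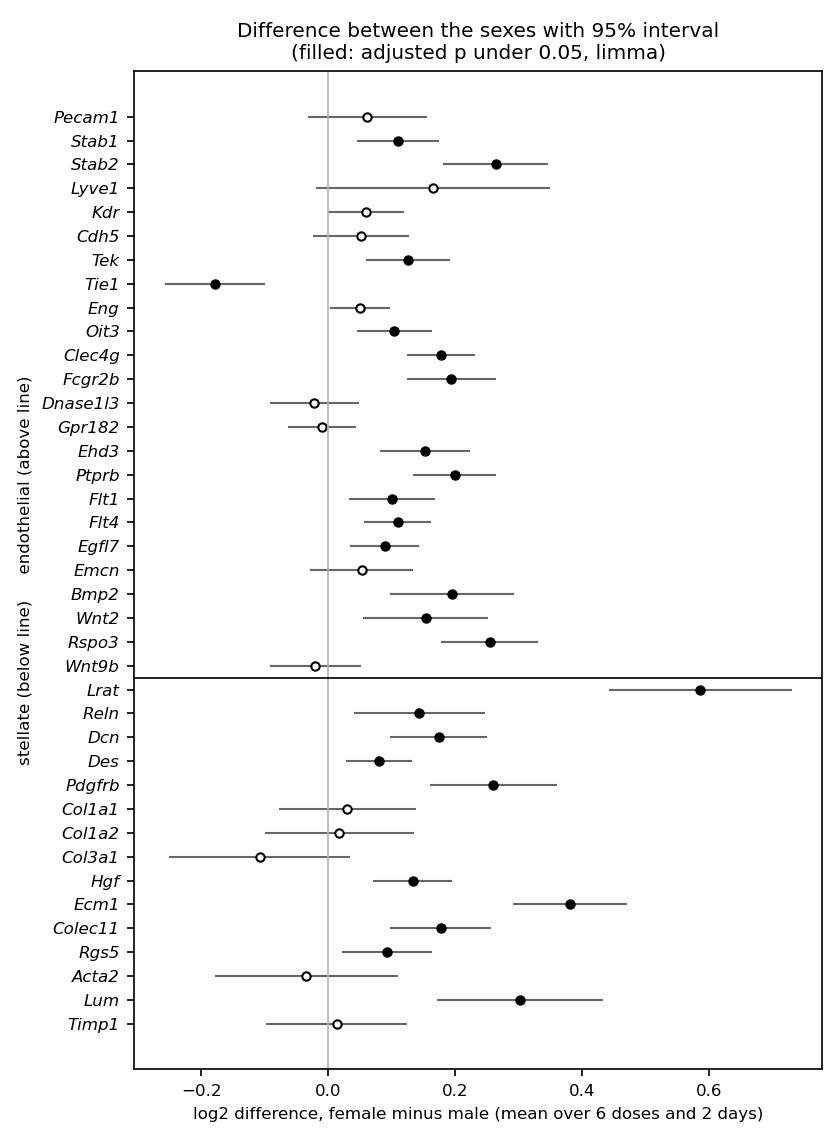
Female minus male log2 difference of each of the 39 genes, as the mean over 6 doses and both days (points; filled where the adjusted p was under 0.05), with 95% intervals. Most genes lie to the right of 0, with Lrat at 0.59 and Ecm1 at 0.38, and Tie1 lies to the left at -0.18.

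Genes around these signals were counted by list in the average of 150 against 0, where 9.42% of all genes fell and 8.27% rose. Of 16 hepatocyte genes known as targets of Wnt, 11 fell and 2 rose, with a median of -0.25. Oat, an ornithine aminotransferase of pericentral hepatocytes, fell by 0.81 ± 0.13 (SE; adjusted p = 1.05e-06), and Nkd1, a feedback inhibitor of Wnt signalling, by 0.58 ± 0.10 (SE; 2.03e-06). Cyp1a2 rose by 0.70 ± 0.07 (SE; 1.81e-14) and Lect2 by 0.50 ± 0.07 (SE; 4.25e-09). Of 13 hepatocyte targets of BMP 1 fell, Tmprss6 (-0.21), and of 9 genes for the HGF receptor and its activators 1 fell, Hgfac (-0.33). Both counts were near the share of all genes that fell. A link between the Wnt targets and the levels of Wnt2 and Rspo3 was not tested.

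Further markers of both cell types were counted in the same way, beside the 9.42% of all genes that fell and the 8.27% that rose. Of 32 other sinusoidal endothelial genes 8 fell and 1 rose, with a median of -0.09. Aqp1, a water channel, fell by 0.30 ± 0.05 (SE; adjusted p = 5.68e-06), Adgrl4 by 0.26 and Plpp3 by 0.25, and the protease gene Ctsl rose by 0.15. Of 16 capillary and large vessel genes 2 rose, Col4a1 (0.27) and Efnb2 (0.16), and 1 fell, Plvap (-0.17).

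Of 28 other stellate cell genes 14 fell and 0 rose, with a median of -0.21, where 9.42% of all genes fell and 8.27% rose. Hand2, a transcription factor of stellate cells, fell by 0.75 ± 0.08 (SE; adjusted p = 5.04e-12), Pdgfra, a PDGF receptor, by 0.48, Bambi, a decoy receptor of TGF beta signalling, by 0.40 and Vipr1 by 0.39. Of 33 further matrix genes 4 rose, among them Col15a1 (0.39) and Col12a1 (0.14) besides Col4a1, and 2 fell, among them Bgn (-0.21). The counts for these matrix genes were not far from the shares of all genes. Of 20 TGF beta and PDGF genes Tgfbr2 rose by 0.71 ± 0.07 (SE; adjusted p = 1.85e-13) and Pdgfa by 0.30, and 3 fell, among them Tgfbr3 (-0.27) and Smad4 (-0.22).

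In a list of 13 VEGF, angiopoietin and angiopoietin-like genes, 2 fell, both angiopoietin-like, and 1 rose, where 9.42% of all genes fell and 8.27% rose. Angptl4, a secreted inhibitor of lipoprotein lipase, fell by 0.93 ± 0.17 (SE; adjusted p = 1.09e-05), Angptl6 fell by 0.17 and Angpt1, the ligand of TIE2, rose by 0.21. Of 14 shear stress and Notch genes 1 fell, Jag1 (-0.21), a count near the share of all genes.

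Markers of blood-derived and bile duct cells were counted beside the 8.27% of all genes that rose and the 9.42% that fell. Of 11 neutrophil and monocyte genes 1 rose, S100a8, of 16 lymphocyte genes 1, Ptprc, and of 13 genes listed for cholangiocytes 2, Krt8 and Krt18, with 1 fall, Krt23. Krt8 and Krt18 are not confined to bile duct cells. The Kupffer genes that rose at 150 were Ctss, Cd14, Mpeg1 and Cd5l, and the hepatocyte genes with the smallest adjusted p were F2, Apoh, Ahsg and Apob, all lower.

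Apart from the collagen genes, the correlations looked at within groups were low. After subtracting group means, the median pairwise correlation over the 96 arrays was 0.16 within the endothelial set, 0.17 within the stellate set and 0.07 between the sets, values from arrays that share one RNA each. Wnt2 and Rspo3 correlated with r = 0.23 and Lrat and Ecm1 with r = 0.15. The mean level of the endothelial set ran from 7.96 to 8.36 at dose 0 and from 7.82 to 8.32 at 150, and that of the stellate set from 8.52 to 8.86 and from 8.14 to 8.74, so single arrays of the 2 doses overlapped in both.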

How the data were processed

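The deposited table held log2 expression values of 45101 probe sets on 96 arrays, which the authors had normalized across arrays before deposit, by a method not stated in the sources at hand. Per the labels' protocols, Trizol-extracted RNA (4 μg) was amplified and given a biotin label by an Enzo kit. The 64 control probe sets were left out; 34945 others had 1 gene symbol in the array's annotation, 932 several and 9160 none, and the last 2 kinds were not named. Each gene took its probe set with the highest mean, giving 18193 genes, 9010 of them with more than 1 probe set. Symbols were checked through gene IDs, and 0 changed.

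The 24 group means were estimated in a single limma model (version 3.58.1, under R 4.3.3) over the 96 arrays, reading tables with the package data.table, version 1.17.8. The residual degrees of freedom were 72 and the prior ones 4.39. Each dose was compared with dose 0 of its sex and day and in the average over the 4 combinations. Tests were two-sided, adjusted by Benjamini-Hochberg over all genes, with a threshold of 0.05. The fit was tested on simulated data. The 39 genes and the 18 lists of other genes were chosen with earlier results of these data known. Of each other list, up to 4 called genes with the smallest adjusted p at 150 were named, and array values were given for the genes called at 150. Alternatives were a replicate block, quantile normalization, leaving out dim genes, the mean of probe sets, another prior, single sex and day fits, leaving out each array, and, chosen after seeing the data, leaving out 2 arrays. Arrays give no counts, so 4 per group limit the precision. Promoters came from RefSeq (GRCm38.p6). Figures used matplotlib 3.10.9.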

Additional observations from a re-analysis of the deposited data

Results flagged for a closer look

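Among groups of 4 arrays, 15 of 176 tested had 1 array whose gap to the others was large by Dixon's test at 95%; chance gives about 1 in 20. In females on day 2, Stab2 at 150 read 8.96 in replicate 1 against 9.12 to 9.14 in the others, and Ecm1 at 150 read 10.00 in replicate 3 against 9.82 to 9.84. The mean of the endothelial genes at 15 read 8.29 in replicate 2 of that sex and day, against 8.17 to 8.18.

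In females on day 7, Fcgr2b read 10.50 in replicate 2 at dose 0, against 10.85 to 10.88, and 10.88 in replicate 2 at 150, against 10.46 to 10.52. Rspo3 at dose 0 read 7.43 in replicate 1, against 7.07 to 7.10. The mean of the stellate genes at 0.15 read 8.93 in replicate 3, against 8.66 to 8.69.

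In males on day 2, the mean of the stellate genes at dose 0 read 8.74 in replicate 3, against 8.54 to 8.57. Reln at dose 0 read 9.64 in replicate 4, against 10.12 to 10.21, and Ecm1 at dose 0 read 9.45 in replicate 2, against 9.62 to 9.65. At 150, Dnase1l3 read 8.004 in replicate 4 (others 7.72 to 7.76), Ehd3 9.21 in replicate 4 (8.73 to 8.76) and Rspo3 6.26 in replicate 2 (6.53 to 6.57).

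In males on day 7 at 150, replicate 2 stood above its group in Eng, at 9.07 against 8.89 to 8.92, and in Dnase1l3, at 8.27 against 8.05 to 8.06.

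The response to 150 differed between the days by limma's test for Tek, by 0.39 (adjusted p = 0.0387), and for Dnase1l3, by 0.45 (adjusted p = 0.0219), where day 7 was the higher; the second Dnase1l3 probe set differed the other way, by -0.64.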

How the results depend on the processing

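The count of genes that fell in the average at 150 stayed near its value of 9 endothelial and 6 stellate genes: between 7 and 11 endothelial and between 5 and 7 stellate genes were called with other normalization, filter, probe set or prior settings. Counts by sex and day rested on few genes and moved more. Quantile normalization and leaving out genes below the median level each gave 1 stellate call in females on day 2 (0 before) and 2 endothelial calls in females on day 7 (1 before). The filter left 2 of 4 stellate calls at 75, because it took out Col1a1 and Timp1, whose mean levels lie below that median. With the mean of all probe sets, endothelial calls were 2 in females on day 2 (5 before), 0 on day 7 (1 before) and 2 in males on day 7 (1 before), stellate calls between the sexes at dose 0 were 1 (2 before), and endothelial calls between the days were 1 (2 before). That setting also turned Flt1 between the sexes over all doses to -0.0308 (adjusted p = 0.16) and Dnase1l3 between the days to -0.0943 (adjusted p = 0.87). Fits to the 24 arrays of 1 sex and day gave 2 endothelial and 1 stellate calls in females on day 2, 1 endothelial call in males on day 2 (3 before) and 1 stellate call in males on day 7 (3 before). The cause of the other shifts was not tested.

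Leaving out 1 array at a time gave 1 to 7 endothelial calls in females on day 2, 0 to 2 endothelial and 0 to 1 stellate in females on day 7, 0 to 1 stellate in males on day 2, and 0 to 2 endothelial and 0 to 3 stellate in males on day 7. At 75 it gave 1 to 3 endothelial and 2 to 5 stellate calls, between the sexes at dose 0 it gave 2 to 5 and 1 to 4, and between the days it gave 0 to 3 endothelial calls. Without the 2 doubted arrays 10 endothelial and 6 stellate genes were called at 150, and 2 and 3 at 75.

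Arrays with the same replicate number did not vary together: their residuals correlated at 0.0013 on average, at -0.29 at the lowest. The replicate block gave 9 endothelial and 6 stellate calls at 150 and changed no call. The table gives no signal over background, so it cannot be said whether dim genes such as Timp1 and Wnt9b were detected.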
